A study of Mus musculus with 24 samples.

Results

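The kainate receptor subunits are encoded by 5 genes, Grik1 to Grik5. Every probe set annotated with exactly 1 of these symbols was taken, which gave 8 of 45037 probe sets, and 5 of the 18193 genes named by single-symbol probe sets. They were measured on 24 one-colour Affymetrix arrays of total RNA from mouse brain, 6 in each of 4 groups: hippocampus from low freezing mice, hippocampus from high freezing mice, amygdala from low freezing mice and amygdala from high freezing mice. All mice came from the progeny of a C57BL/6J by A/J cross bred for fear of a context. The labels add no genotype, age, sex, shock protocol or time of dissection. They do not say whether arrays hold RNA of separate animals or of pools, so p-values measure only the spread between these arrays.

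Kainate receptors are ionotropic glutamate receptors made of 4 subunits. Grik1, Grik2 and Grik3 encode the low-affinity subunits, which form channels by themselves. Grik4 and Grik5 encode the high-affinity subunits, which reach the membrane only together with a low-affinity subunit. In the hippocampus these receptors are best known at the synapses between dentate mossy fibres and CA3 pyramidal cells, and in the amygdala Grik1 is known from interneurons and principal neurons of the basolateral nuclei. The proteins Neto1 and Neto2 accompany the channels and set their kinetics.

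To show what lies before the genes whose levels differed most between regions, 250 bases before each start site of the RefSeq promoter table (GRCm38.p6) were searched for the GC box, GGGCGG on either strand. The table held 4 of the 5 members, and Grik1 was not among them. One stretch of 30 bases is given for each member with a box, 5′ to 3′ on the gene's strand and with the boxes in capitals.
Grik3, chr4:125490613-125490642, plus strand: cccgtGGGCGGcagccgaggcgGGGCGGgc
Grik4, chr9:42944546-42944575, minus strand: tcactgcccgccGGGCGGcgcctcagcgcc
Grik5, chr7:25072427-25072456, minus strand: ccaggccggcccggctaggggaggGGGCGG
The Grik3 window held 6 boxes, that of Grik5 2 and that of Grik4 1, while the Grik2 window on chromosome 10 held 0. Of 32851 such windows in the table, 32.7% held at least 1 box, 16.7% at least 2 and 4.09% at least 4. G and C made up 82.0% of the Grik3 window, 75.2% of that of Grik5, 69.6% of that of Grik4 and 62.8% of that of Grik2, against a median of 52.4% over all windows. The 3 windows with boxes lie inside the RefSeq span of their gene, so other listed transcripts start further upstream. These matches describe sequence only, and the arrays do not measure binding.

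Of the 8 member probe sets, 7 were bright enough to be tested. Grik1 (chromosome 16) had the probe sets 1427676_a_at and 1439987_at, Grik2 (chromosome 10) had 1457683_at and 1425790_a_at, and Grik3 (chromosome 4) had 1440177_at and 1427709_at. Grik4 (chromosome 9) was read by 1437681_at and Grik5 (chromosome 7) by 1418784_at. The first-named probe set of each gene is its brightest and stands for the gene. Probe sets differ in how well they bind, so no level of one is compared with that of another. The second Grik3 probe set averaged 3.765 intensity units over all arrays and was left out as dim, since the lowest mean kept was 23.35. Differences below are of log2(intensity + 16), which understates changes of dim probe sets.

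Array medians ran from 36.72 to 38.66 intensity units in the low and 37.47 to 41.49 in the high freezing hippocampus. They ran from 39.45 to 42.96 in the low and 41.32 to 43.4 in the high freezing amygdala. The precision is limited by the number of arrays, 6 per group.

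**Figure D1:**
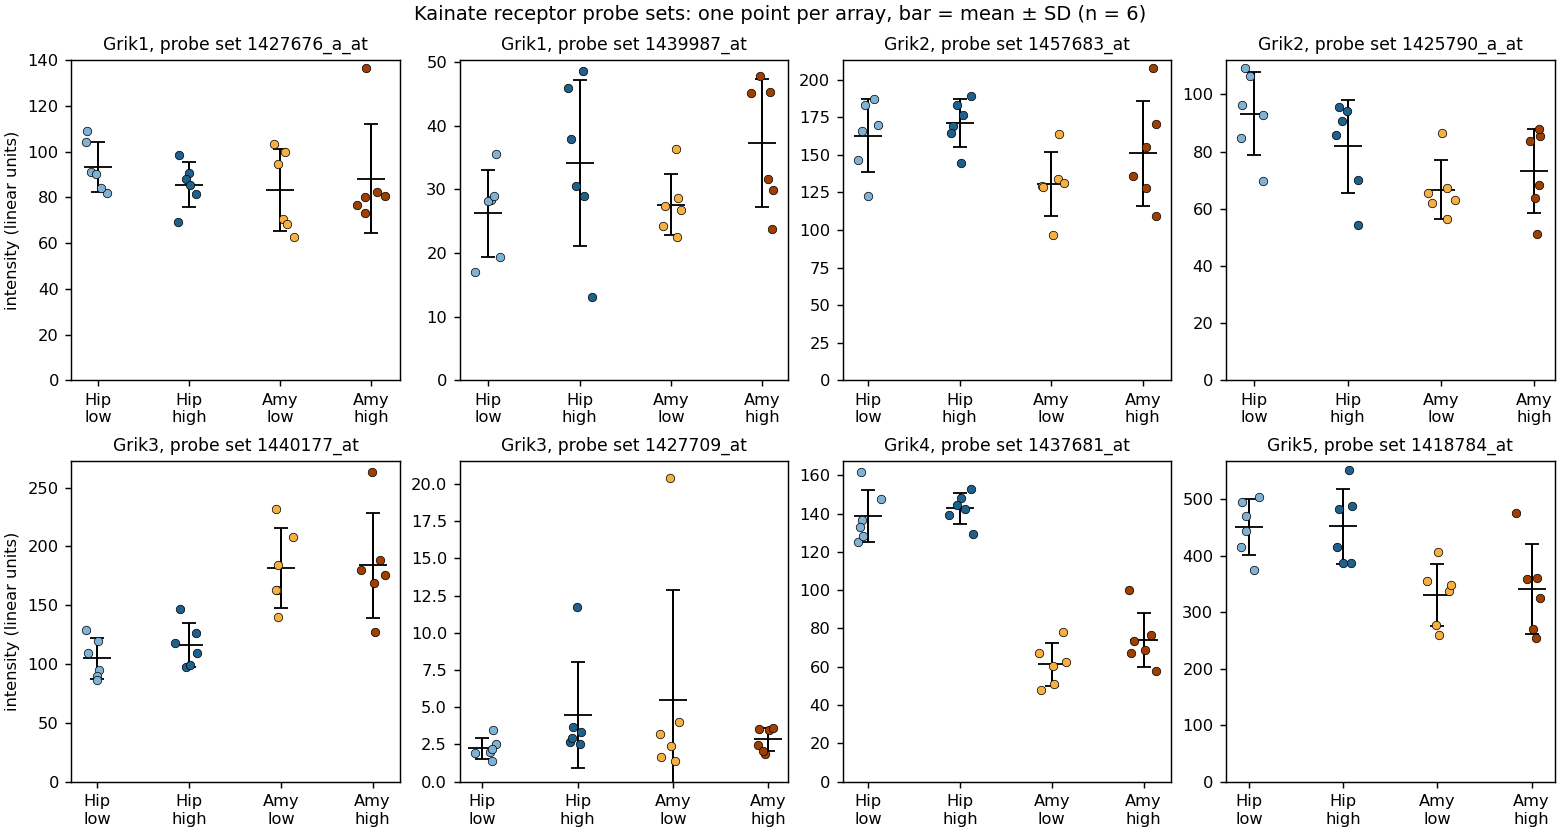
Each panel plots 1 probe set, with intensity in linear units from 0 on the vertical axis and the 4 groups (Hip, hippocampus; Amy, amygdala) on the horizontal axis; each point is 1 array, and bars give the mean and SD of 6 arrays, cut at 0. For Grik4 all 12 amygdala arrays, 47.72 to 100, lie below all 12 hippocampal arrays, 125.1 to 161.7, and for Grik3 at 1440177_at the amygdala arrays lie mostly higher.

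The levels of 4 of the 5 genes differed between the regions. Both high-affinity subunit genes were lower in amygdala than in hippocampus, Grik4 by 1.89-fold and Grik5 by 1.34-fold. Among the low-affinity genes, Grik3 was 1.56-fold higher in the amygdala, Grik2 was 1.18-fold lower, and Grik1 did not pass the test. In all, 5 of the 7 tested probe sets passed the limma threshold, 1 higher and 4 lower in the amygdala. Over all 27022 probe sets tested, 51.2% passed, 27.1% higher and 24.1% lower, so calls were common on these arrays.

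Grik4, which encodes a high-affinity subunit known from CA3 pyramidal cells, separated the regions without overlap. In the low freezing hippocampus its lowest, median and highest intensities were 125.1, 134.8 and 161.7, and in the high freezing hippocampus 129.1, 143.4 and 152.9. In the amygdala they were 47.72, 61.5 and 78.26 in the low and 57.99, 70.97 and 100 in the high freezing group. Every amygdala array therefore lay below every hippocampal array, and 13.2% of all tested probe sets (3557) showed such a separation of 12 arrays from 12 in either direction. The mean was 67.56 ± 13.9 in amygdala and 140.7 ± 11 in hippocampus (SD, n = 12 each). The log2 difference was -0.92 (SE 0.0733; limma adjusted p = 8.48e-12), with a 95% interval from -1.07 to -0.77. In absolute size it exceeded 93.3% of the differences of all tested probe sets. The spread was wider in the amygdala, with a coefficient of variation of 20.5% against 7.81%.

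Grik5, the more widely expressed high-affinity subunit gene, moved the same way by less. Its lowest, median and highest intensities were 374.1, 456 and 503.6 in the low and 386.2, 449.2 and 552.2 in the high freezing hippocampus. The low freezing amygdala gave 258.7, 342.3 and 406.1, and the high freezing amygdala 254.1, 341.7 and 475.6. The regions overlapped only at the top of the amygdala range, since 10 of 12 amygdala arrays lay below the lowest hippocampal array. The exceptions were amygdala low freezing array 1, at 406.1, and amygdala high freezing array 7, at 475.6. The mean was 335.2 ± 65.1 in amygdala and 450.9 ± 55.8 in hippocampus (SD, n = 12 each), a log2 difference of -0.42 (SE 0.0858; limma adjusted p = 0.000127).

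Grik3, whose product is a low-affinity subunit with an unusually low sensitivity to glutamate, was the member that rose. Its lowest, median and highest intensities at 1440177_at were 86.36, 101.9 and 129 in the low and 97.34, 113.3 and 147 in the high freezing hippocampus. They were 139.6, 173.7 and 231.7 in the low and 127.2, 177.6 and 263.6 in the high freezing amygdala. Here 10 of 12 amygdala arrays lay above the highest hippocampal array, and amygdala low array 4 and amygdala high array 11 did not. The mean was 182.7 ± 37.7 in amygdala and 110.4 ± 18.2 in hippocampus (SD, n = 12 each), a log2 difference of 0.64 (SE 0.0932; limma adjusted p = 1e-06). The dim second probe set of Grik3 gave regional medians of 2.825 and 2.608 units, and fitted without the filter its log2 difference was 0.04 (limma adjusted p = 0.832). Its values lie far below the offset of 16, so this fit could hardly show such a difference and does not decide the question. The call for Grik3 rests on 1 probe set, as do those of Grik4 and Grik5.

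Grik2, which encodes a low-affinity subunit of mossy fibre synapses, was read by probe sets that both passed in the same direction. At 1457683_at the lowest, median and highest intensities were 122.9, 167.8 and 187 in the low and 144.4, 172.7 and 189.1 in the high freezing hippocampus. In the amygdala they were 96.41, 130.1 and 163.6 in the low and 109, 145.3 and 207.4 in the high freezing group. The groups overlapped widely, and the highest value of all came from amygdala high array 7. The mean was 140.7 ± 29.6 in amygdala and 166.9 ± 20 in hippocampus (SD, n = 12 each), a log2 difference of -0.24 (SE 0.0854; limma adjusted p = 0.0211). At 1425790_a_at the means were 70.06 ± 12.6 and 87.54 ± 15.9, a log2 difference of -0.26 (SE 0.0913; limma adjusted p = 0.0166, n = 12 each). Both sizes lie near the middle of the array: they exceeded 56.5% and 60.4% of all absolute differences.

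Grik1, which encodes the low-affinity subunit linked to interneurons, did not pass at either probe set. At 1427676_a_at the lowest, median and highest intensities were 81.81, 90.63 and 109 in the low and 69.44, 86.87 and 98.57 in the high freezing hippocampus. In the amygdala they were 62.9, 82.69 and 103.5 in the low and 73.29, 80.28 and 136.4 in the high freezing group. The regional means were 85.75 ± 20.3 in amygdala and 89.54 ± 10.7 in hippocampus (SD, n = 12 each). The log2 difference was -0.07, with a 95% interval from -0.25 to 0.11 (limma adjusted p = 0.546). At the dimmer 1439987_at the sign was opposite, 0.08 with an interval from -0.16 to 0.33 (limma adjusted p = 0.585). These intervals bound the difference of Grik1 but do not show equal levels.

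**Figure D2:**
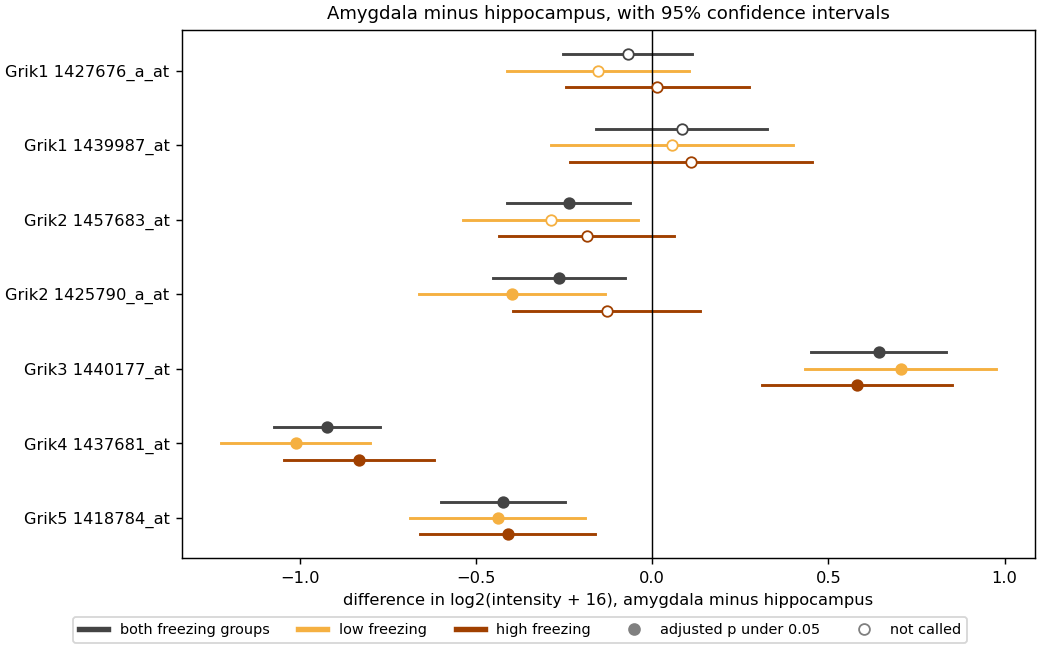
The horizontal axis gives amygdala minus hippocampus in log2(intensity + 16), with the 7 tested probe sets on the vertical axis; points are limma estimates over both freezing groups or within 1, bars are 95% confidence intervals, and filled points have an adjusted p under 0.05. Grik3 lies right of 0 and Grik4 and Grik5 left of 0 in all 3 estimates, whereas the intervals of Grik1 span 0.

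The regional differences of Grik3, Grik4 and Grik5 passed within each freezing group. Among low freezing arrays 4 of 7 probe sets passed, where 40.9% of all tested probe sets did, and among high freezing arrays 3 of 7, where 37.1% did. Grik4 differed by -1.01 in low and -0.83 in high freezing mice (limma adjusted p = 3.25e-09 and 1.47e-07), and Grik3 by 0.70 and 0.58 (6.7e-05 and 0.00075). For Grik5 the values were -0.44 and -0.41 (limma adjusted p = 0.00435 and 0.00814). Grik2 was called in low freezing mice at 1425790_a_at, by -0.40 (limma adjusted p = 0.014), and missed the threshold at 1457683_at, with -0.29 (0.0568). In high freezing mice the Grik2 differences were -0.13 and -0.19 (limma adjusted p = 0.473 and 0.244). This contrast between freezing groups is the interaction given further on, which passed for no member.

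Markers of cell types and of neighbouring tissue, each gene read at its brightest probe set, differed between the same arrays. All 6 dentate granule cell markers were lower in the amygdala. Their summed intensity per array was 1219 to 1672 there, against 2670 to 3416 in the hippocampus. The brightest probe sets weigh most in such sums. Among the dentate markers, Calb1, at a mean of 1231 in the amygdala, was 1.5-fold lower, and Lct, at 9.554, was 12.3-fold lower. Of 6 measured CA field markers 5 were lower and 1, Wfs1, was higher (not called with arrays centred on their median), with sums of 1160 to 1869 against 2278 to 2877. All 4 measured markers of excitatory forebrain neurons were lower, with sums of 1837 to 3261 against 6963 to 9231. Higher in the amygdala were all 8 measured markers of central amygdala and striatum (5882 to 10940 against 800 to 1018) and 4 of 5 GABA neuron markers (7588 to 8853 against 3650 to 4161). All 7 oligodendrocyte markers were also higher (26650 to 36360 against 11910 to 16210), although of 8 Mbp probe sets 7 were higher and 1 lower. The same held for all 6 markers of choroid plexus (14300 to 20970 against 1909 to 13460). It also held for 5 of 7 markers of thalamus and hypothalamus (967.9 to 3590 against 361.8 to 463.9). Of these, Prkcd is also in the list of central amygdala and striatum. Its mean was 1076 in amygdala and 160.6 in hippocampus, so it weighs heavily in the thalamus and hypothalamus sum.

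Of 4 measured markers of the basolateral amygdala, 3 were lower than in the hippocampus and 1 was higher, with sums of 579.6 to 1296 against 1546 to 1816. The lower ones, Rspo2, Lmo3 and Cdh9, were themselves bright in the hippocampus, with means of 282.7, 943 and 472.7. The higher one, Otof, averaged 105.7 in amygdala and 25.75 in hippocampus. This comparison with hippocampus cannot tell how much basolateral tissue the samples held. Interneuron markers were mixed, 2 higher and 4 lower of 7 (3 lower with quantile normalization). Of astrocyte markers 4 of 5 were higher and 1 lower, and 5 of 5 microglial markers were higher, 4 with quantile normalization and 3 with arrays centred on their median. For the astrocyte marker Gja1, counted as higher, 3 of 6 tested probe sets were higher and 1 lower. No marker was listed at 0 on any array, and the lowest single value in the lists above was 0.389, in that of central amygdala and striatum. A list of 3 blood genes reached down to 0.324, and the 1 of them bright enough to be tested was not called between regions. The part of these lists in the Grik differences was not tested. In dissected tissue, fewer cells of a type and less RNA per cell cannot be told apart.

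No kainate receptor gene was called between high and low freezing mice. In the hippocampus 0 of 7 probe sets passed in limma and 0 had an unadjusted p under 0.05, with differences from -0.17 to 0.22 on the log2 scale. In the amygdala 0 of 7 passed in limma and 1 had an unadjusted p under 0.05, with differences from 0.006 to 0.27. The background was equally sparse: 0.0518% of all tested probe sets passed in the hippocampus (14) and 0.0555% in the amygdala (15). None of the measured markers listed above was called by freezing in limma. By unadjusted p under 0.05, 11.8% and 10.7% of all tested probe sets were counted.

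Grik4 in the amygdala had the smallest p of the members. Its amygdala mean was 73.94 ± 14.3 with high and 61.18 ± 11 with low freezing (SD, n = 6 each). The log2 difference was 0.22 with an SE of 0.104 and a 95% interval from 0.006 to 0.43 (limma adjusted p = 0.448). Array 11, at 100, was the only high freezing array above the low freezing maximum of 78.26, and 5 of 6 lay above the low freezing median. In the hippocampus the Grik4 means were 142.7 ± 8.24 and 138.7 ± 13.7 (SD, n = 6 each), a log2 difference of 0.04 (limma adjusted p = 0.926).

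The other high-affinity gene, Grik5, differed little in either region. Its hippocampal means were 451.8 ± 66.4 with high and 450 ± 49.4 with low freezing (SD, n = 6 each), and its 95% interval ran from -0.25 to 0.25 on the log2 scale (limma adjusted p = 0.999). In the amygdala the means were 340.3 ± 79.5 and 330.1 ± 54.2, with an interval from -0.22 to 0.28 (limma adjusted p = 0.966). Amygdala high array 7, at 475.6, was the only array of its group above the low freezing maximum. The same array was the highest of its group for Grik2 at 1457683_at (207.4) and for Grik3 at 1440177_at (263.6).

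Among the low-affinity genes, the largest freezing estimates were at the dimmest tested probe set, Grik1 at 1439987_at. It gave 34.16 ± 13 with high and 26.24 ± 6.87 with low freezing in the hippocampus, and 37.27 ± 10.1 against 27.62 ± 4.8 in the amygdala (SD, n = 6 each). The log2 differences were 0.22 and 0.27 (limma adjusted p = 0.645 and 0.597), and in each region 3 of 6 high freezing arrays lay above the low freezing maximum. The brighter Grik1 probe set gave -0.11 in the hippocampus and 0.06 in the amygdala (limma adjusted p = 0.797 and 0.914). The 2 probe sets of Grik1 thus had opposite signs in the hippocampus.

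For Grik2 the estimates were 0.07 in the hippocampus and 0.18 in the amygdala at 1457683_at (limma adjusted p = 0.866 and 0.649). At 1425790_a_at they were -0.17 and 0.10 (limma adjusted p = 0.65 and 0.845), so its probe sets also disagreed in sign in the hippocampus. Grik3 at 1440177_at had means of 116.1 ± 18.8 with high and 104.7 ± 17.3 with low freezing in the hippocampus, and 183.9 ± 44.5 against 181.5 ± 33.7 in the amygdala (SD, n = 6 each). Its log2 differences were 0.13 and 0.006 (limma adjusted p = 0.756 and 0.994). Over both regions and all 7 probe sets, the 95% intervals of the freezing differences reached from -0.43 to 0.61, the upper end being that of the dim Grik1 probe set 1439987_at in the amygdala.

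**Figure D3:**
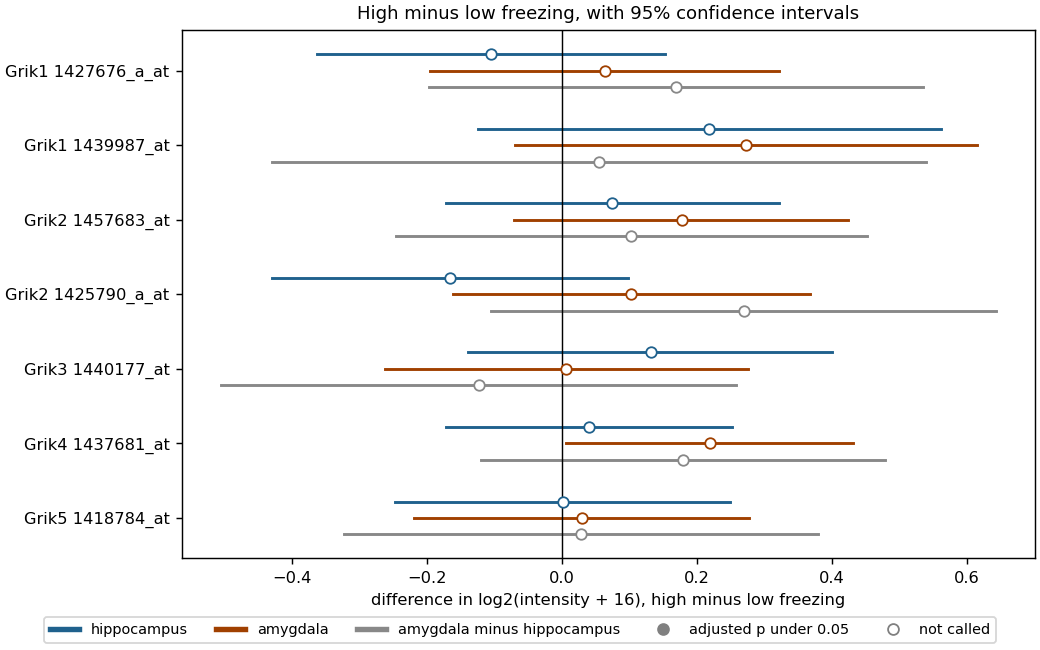
The horizontal axis gives high minus low freezing in log2(intensity + 16) for the 7 tested probe sets in the hippocampus and in the amygdala, and the amygdala difference minus the hippocampal one; points are limma estimates, bars 95% confidence intervals, and open points did not pass. All points are open, and apart from Grik4 in the amygdala (0.006 to 0.43) every interval includes 0.

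The freezing difference was then compared between regions. For all 7 probe sets the interaction had an adjusted p between 0.87 and 0.989 in limma, 0 had an unadjusted p under 0.05, and 0% of all tested probe sets passed, where 6.06% had an unadjusted p under 0.05. The largest estimate was that of Grik2 at 1425790_a_at, 0.27 with a 95% interval from -0.10 to 0.64. The estimate for Grik4 was 0.18, from -0.12 to 0.48, and that for Grik3 -0.12, from -0.51 to 0.26.

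Ordered by group mean on the log2 scale, the levels of Grik4 fell from hippocampus high over hippocampus low and amygdala high to amygdala low. Only the step between hippocampus low and amygdala high passed (0.79; limma adjusted p = 3.29e-07). Grik5 had the same order, and again that step alone passed (0.41; limma adjusted p = 0.00783). For Grik3 the order ran from amygdala high and amygdala low to hippocampus high and hippocampus low, and only the middle step passed (0.57; limma adjusted p = 0.000721). For Grik2 and Grik1 no step between neighbours passed, with adjusted p between 0.467 and 0.944 in limma.

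No correlation between the members within groups passed after adjustment. After subtraction of group means, 12 pairs of probe sets were correlated over 24 arrays, and Pearson's r ran from -0.28 to 0.47 with a median of 0.14. Grik2 and Grik3 had the highest value, r = 0.467 (rho = 0.275; permutation p = 0.0486 and 0.226, adjusted p = 0.583 and 0.678 over 12 pairs). It was 0.729 in the amygdala and -0.0809 in the hippocampus, and 0.317 without the 2 arrays farthest from the median of Grik2. The 2 probe sets of Grik1 correlated at 0.289 and those of Grik2 at 0.11 (permutation p = 0.158 and 0.64, adjusted p = 0.614 and 0.804). Over 24 arrays such values are imprecise, and 1439987_at of Grik1 was dim, with a mean of 31.32. They do not show how much variation the readings of 1 gene share.

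Array to array, the named genes most like each member were listed from 12470 genes by the same correlation, as a description without a test. For Grik4 they were 9430038I01Rik (r = 0.712), Aff1 (0.707) and Gm4802 (0.702), and for Grik5 they were Sema4f (0.845), Man1a (0.839) and Brk1 (0.837). For Grik3 the list was Capn1 (0.766), Intu (0.738) and Dstn (0.718), and for Grik2 it was Tasp1 (0.81), Ctsc (0.729) and Txndc9 (0.728). Grik1 was most like Mansc1 (0.753), Apba1 (0.71) and Rabl2 (0.703). All pairs share the same arrays, and 3 genes picked from so many are high by selection. Within regions, the value for Ctsc was 0.865 in the amygdala and 0.292 in the hippocampus, and those for Aff1 were 0.783 and 0.421. For Man1a they were 0.834 and 0.891. Without the 2 arrays farthest from the member's median, r lay between 0.501, for Aff1, and 0.793, for Man1a.

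Genes that handle kainate receptors also differed between regions, in both directions. Partner genes were counted by their brightest probe set alone. Of 28 genes 24 were measured, 8 were higher in the amygdala, 9 were lower and 7 were not called, with a median log2 difference of 0.04 against 0.02 over all tested probe sets. This share, like that of the members, stands beside 51.2% of all tested probe sets. That background counts every tested probe set and not only the brightest of each gene, so for the partners the match is loose. Between freezing groups 0 of 24 passed in either region, and 0 in the interaction.

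The auxiliary subunits moved apart. Neto1, which slows the decay of kainate currents at mossy fibre synapses, stood at 518.2 ± 120 in amygdala and 843.9 ± 68 in hippocampus (SD, n = 12 each), 1.65-fold lower (limma adjusted p = 4.37e-07). Neto2, its close relative, stood at 374.5 ± 36.1 and 281.6 ± 19.9, 1.31-fold higher (limma adjusted p = 1.29e-07). The ranges of Neto2 did not overlap, with 327.8 as the lowest amygdala and 323.6 as the highest hippocampal value. Of 3 tested probe sets each, 3 were lower for Neto1 and 2 higher for Neto2. The ranges of Neto1 overlapped, with 746.3 as the highest amygdala and 730.4 as the lowest hippocampal value.

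Among synaptic organisers 1 of 4 measured genes was higher and 3 were lower. C1ql2 and C1ql3, secreted by mossy fibres and known to recruit kainate receptors, had the largest differences. C1ql2 stood at 33.72 ± 11.6 in amygdala and 321.9 ± 56.3 in hippocampus, 6.86-fold lower (limma adjusted p = 1.01e-19), and C1ql3 at 649.1 ± 351 and 1811 ± 129, 3.14-fold lower (4.34e-08; SD, n = 12 each). C1ql2 is also 1 of the 6 dentate markers above.

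Of 9 scaffold genes 2 were higher and 4 lower. Grip2, which binds receptor tails, was 1.92-fold higher, and Dlg3, a membrane-associated guanylate kinase, 1.72-fold lower. In the transport and fusion group Snapin was 1.30-fold higher and Snap25, the synaptic SNARE protein also tied to removal of kainate receptors, 1.14-fold lower. At the brightest probe sets, 1 of 4 measured turnover genes was called, Klhl17, which encodes the adaptor actinfilin that marks Grik2 protein for degradation, at 1.11-fold higher. With arrays centred on their median this call was lost (limma adjusted p = 0.209), and Cul3 (adjusted p = 0.00202) and the scaffold gene Dlg2 (0.0316) were called lower. Other probe sets of these genes did not all follow the brightest one. Over all tested probe sets, 3 of 5 were lower for Cul3, 1 of 5 was higher for Klhl24 and 1 of 3 was lower for Dlg2. For Cask 1 of 4 was higher and 1 lower. Klhl17 was called at 1 of 2 probe sets, as were Snapin and Snap25.

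Both enzymes of RNA editing, which recode kainate receptor transcripts, were higher in the amygdala. Adarb1 stood at 374.9 ± 103 against 170.4 ± 29.4 (SD, n = 12 each), 2.06-fold higher (limma adjusted p = 7.08e-09). Adar was 1.14-fold higher (limma adjusted p = 0.00132), a call lost with arrays centred on their median (0.0616). Of their tested probe sets, 2 of 3 were called higher for Adarb1 and 1 of 3 for Adar, and 0 lower. The arrays do not show whether a transcript was edited.

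**Figure D4:**
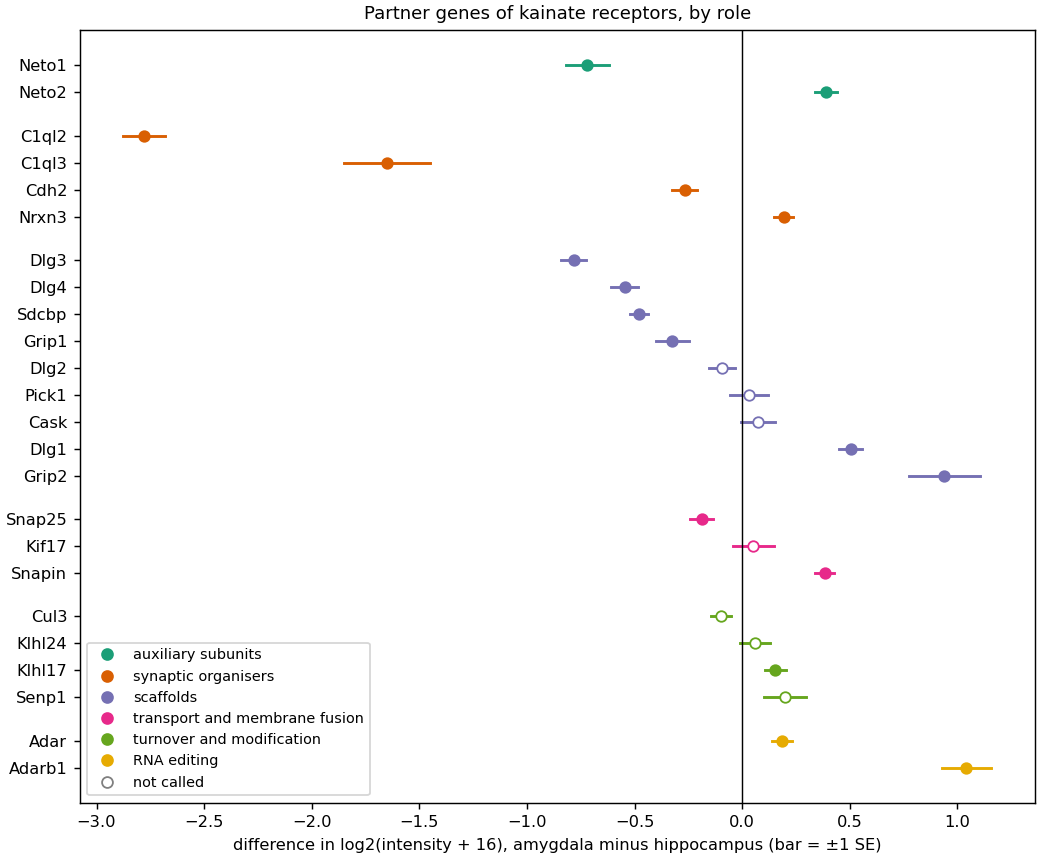
The horizontal axis gives amygdala minus hippocampus in log2(intensity + 16) for the 24 measured partner genes, grouped by role on the vertical axis; points are limma estimates, bars 1 SE, and open points did not pass. C1ql2 lies farthest left at -2.78 and Adarb1 farthest right at 1.04, and Neto1 and Neto2 lie on opposite sides of 0.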

How the data were processed

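The deposited table holds linear intensity values, 1 per probe set and array (software: not given in the sources used here). Without the top and bottom 2%, each array's mean was 149.2 to 149.4 in the deposited values. Gene symbols came from platform annotation: 34945 probe sets carried 1 symbol, 932 several and 9160 none.

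The 64 control probe sets and the dimmest 40% by mean log2(intensity + 16) were left out, which left 27022. A linear model (limma 3.58.1, R 4.3.3) took 1 mean for each group over the 24 arrays, with an intensity trend in the prior and 20 residual degrees of freedom, two-sided, with Benjamini-Hochberg adjustment over 27022 probe sets and a threshold of 0.05. Array medians spanned 0.172 on the log2 scale, so arrays were not normalized further. The procedure was tested on simulated data.

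Correlations used 100000 permutations within groups. Named are all members, the 3 genes most like each, the auxiliary subunits, the editing enzymes and the 2 largest called regional differences per partner role. Some further partner genes are named because their call depended on the scaling or differed between probe sets, and some markers as examples. Members, lists and tests were chosen with earlier results of these data known. Arrays 1 to 6 and 7 to 12 carry the same numbers in both regions. With group means subtracted, same-numbered arrays correlated between -0.0791 and 0.0865, and the numbers were not taken as pairs in the main fit. Within freezing groups each array had 6 candidates in the other region, 1 of them with its own number. Of the amygdala arrays, 5 of 12 correlated best with the hippocampal array of their own number, and 4 of 12 the other way. These values do not settle whether equal numbers mark the same animal. Alternatives were an offset of 1 or 64, quantile normalization, centring on array medians, no filter or the dimmest 60% left out, no intensity trend, a replicate block, regions alone and each array left out.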

Additional observations from a re-analysis of the deposited data

Results flagged for a closer look

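In 4 of 32 sets of 6 arrays (8 probe sets in 4 groups), 1 array stood apart from the other arrays of its group; chance alone would give about 1 in 20. Grik1 at 1427676_a_at was 136.4 on amygdala high array 12, where the next highest value was 82.3. Grik2 at 1425790_a_at was 86.53 on amygdala low array 4, next to 67.15. The dim Grik3 probe set 1427709_at was 11.75 on hippocampus high array 7, next to 3.689, and 20.43 on amygdala low array 4, next to 4.001. The values of Grik1 and Grik2 were kept in the main fit and dropped only where their array or region was left out. The dim Grik3 probe set was fitted only without the filter.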

How the results depend on the processing

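Under the alternatives and with each array left out, 5 member probe sets passed between regions, 4 to 5 in low and 3 in high freezing mice, and 0 for freezing or the interaction. The replicate block gave 5, 5, 3 and 0, and as a random block 0 for freezing in either region; it changed no other call than that of Grik2 1457683_at in low freezing mice (-0.288, adjusted p = 0.0437). That call was also gained with quantile normalization (-0.315), centring (-0.37), the dimmest 60% left out (adjusted p = 0.0497) and without hippocampus low array 3, amygdala low array 3, amygdala high array 7 or amygdala high array 9.

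Uncalled values changed sign with quantile normalization: Grik1 1439987_at region difference in low freezing -0.012, Grik1 1427676_a_at in high freezing -0.049, Grik3 1440177_at amygdala freezing -0.007. With centring these were -0.026, -0.054 and -0.036, and Grik4 1437681_at hippocampus freezing -0.016, Grik5 1418784_at hippocampus freezing -0.055 and amygdala freezing -0.014. With 1 array left out, signs changed for Grik1 1439987_at between regions in low freezing (-0.012 to 0.117), in high freezing (-0.037 to 0.193) and in the interaction (-0.093 to 0.137). They changed for Grik1 1427676_a_at between regions in high freezing (-0.1 to 0.054) and for amygdala freezing (-0.052 to 0.12), and for Grik3 1440177_at amygdala freezing (-0.096 to 0.097). For Grik5 1418784_at they changed in the hippocampus (-0.058 to 0.042), amygdala (-0.07 to 0.103) and interaction (-0.071 to 0.102). The cause was not tested. Partner genes higher in the amygdala numbered 6 to 8 and lower 9 to 11. With the dimmest 60% left out Grik1 1439987_at could not be tested.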
